A study of Mus musculus with 24 samples.

Results

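The libraries described here came from the hippocampus of 6-month-old female (XX) mice, with and without aromatase in the cells of the brain. They were chosen by age, sex and genotype in the sample labels, 3 per genotype, and make up 6 of the 24 libraries of the series. The series set hippocampal RNA of mice without brain aromatase beside that of controls in both sexes and at 2 ages, labelled 6 and 24 months. RNA was sequenced as polyadenylated, strand-specific libraries in single-end reads of 50 bases, and reads were counted per gene. The comparison answers how the young female hippocampus differed between the genotypes, across genes and pathways, including immune and interferon-related genes.

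The bArKO mice carried aromatase alleles flanked by loxP sites (Arom fl/fl) and the Nestin-Cre transgene on a C57BL/6J background. Their controls were littermates of the same age with Arom fl/fl alleles, so both groups carried the floxed gene. Nestin-Cre acts in neural progenitors and thereby in the neurons and glia that descend from them, and it leaves the ovary with its own aromatase. Whether the controls carried Cre was not stated, so the transgene and the loss of aromatase cannot be told apart. By their labels, all 6 mice had been euthanised with ketamine and xylazine before the tissue was taken.

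Aromatase, the product of Cyp19a1, turns androgens into estrogens, and some neurons and astrocytes make it alongside the ovary. Estrogens act through the nuclear receptors encoded by Esr1 and Esr2 and the membrane receptor encoded by Gper1. Interferons, in turn, bind surface receptors whose signalling raises a shared set of antiviral genes in neurons, glia and vessels.

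Total counts were 11123983, 9547440 and 13426664 in control replicates 1 to 3. In bArKO replicates 1 to 3 they were 13610102, 9195411 and 8196485. Expression is given as CPM, the usual scaling of a gene's counts to the library total, here after TMM adjustment of that total, and values listed in sequence follow replicates 1 to 3 of the controls and then of bArKO. A count of 0 allowed a level of up to 0.224 to 0.366 CPM, depending on the library (3 counts; counting error only). Mitochondrially encoded genes took 7.96% to 9.93% of the counts. Of 13 such genes listed, 6 had 0 counts in all 6 libraries and added nothing to this share. The cause was not tested.

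Cyp19a1 (ENSMUSG00000032274, chr9:54072601-54175394 of GRCm39) had 2, 0 and 1 counts in the controls and 1, 0 and 0 in bArKO. Both genotypes thus lay at or under the floor in every library, and the deletion was not detectable at this depth. Xist, which is transcribed from the inactive X chromosome, was at 500, 712 and 775 CPM in the controls and at 662, 579 and 502 CPM in bArKO. Ddx3y, a gene of the Y chromosome, had 0 counts in all 6 libraries, so the sex labels and the counts matched.

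Markers of the hippocampus were present in every library. Summed over 6 markers of excitatory neurons, the level lay between 10380 and 11280 CPM, with Camk2a the most abundant at a mean of 8236 CPM. Interneuron markers summed to 692 to 777 CPM, astrocyte markers to 9701 to 11303 CPM and microglial markers to 554 to 579 CPM. The microglial sums were thus nearly the same in all 6 libraries, and Csf1r, the receptor that microglia need to survive, had means of 134 and 135 CPM in controls and bArKO.

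Subfield markers differed more between libraries. CA1 markers summed to 444, 613 and 641 CPM in the controls and to 655, 698 and 723 CPM in bArKO. CA3 markers summed to 259, 241 and 232 CPM in the controls and to 217, 215 and 213 CPM in bArKO. The groups did not overlap in either sum, with CA1 higher and CA3 lower in bArKO, although 0 of 5 CA1 and 0 of 5 CA3 markers reached an unadjusted p under 0.05 in the edgeR quasi-likelihood test across all genes. The most abundant of each list, Mpped1 for CA1 and Bok for CA3, were at means of 253 and 113 CPM. In bulk tissue, fewer cells of a type and less RNA per cell cannot be told apart. Ependymal markers (sums of 29.7, 44.9 and 37.6 CPM against 29.1, 25.1 and 27.5 CPM) and the trace levels of pituitary markers (1.52, 2.31 and 2.31 CPM against 2.55, 2.61 and 2.32 CPM) also did not overlap, and the sums of the other 21 of 25 marker lists did.

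Control replicate 1 lay at the end of several marker lists. It held the lowest CA1 sum and the highest dentate gyrus sum (896 CPM against 632 to 795 CPM), led by Stxbp6. It also held the highest sum of thalamic markers, 202 CPM against 103 to 142 CPM, led by Rora. Blood markers, led by the hemoglobin gene Hbb-bs, summed to 155 CPM there and to 74.6 to 144 CPM elsewhere. None of the markers in these 4 lists was at 0 counts over the 6 libraries. Of 14405 genes with a mean of at least 1 CPM, 17 were at least 2-fold above the highest of the other libraries in control replicate 1, against 1 to 4 genes in each of the others. At least 2-fold below the lowest of the other libraries were 18 genes there, 6 and 5 in control replicates 2 and 3, and 25, 20 and 35 in bArKO replicates 1, 2 and 3. Results that rest on this library are therefore given with and without it.

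**Figure D1:**
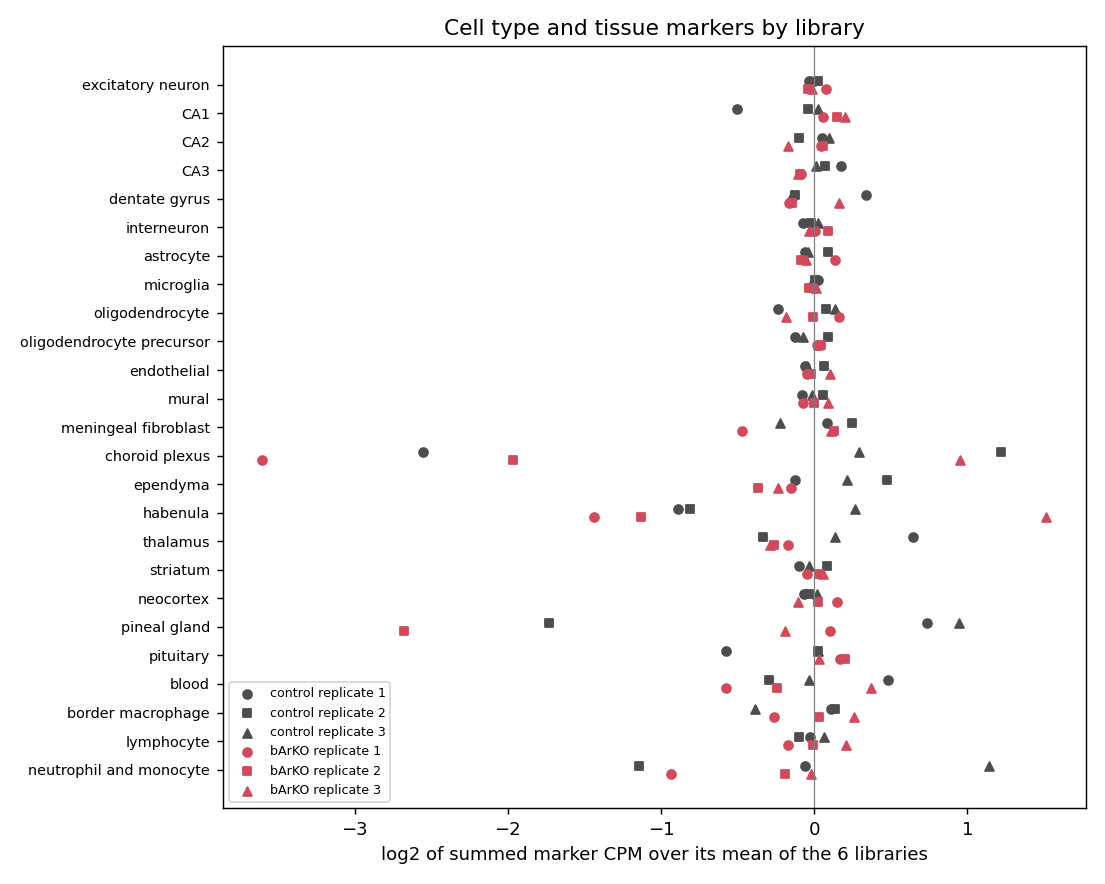
Summed CPM of 25 marker lists in each library, as the log2 ratio to the mean of the 6 libraries; grey points are controls, red points bArKO, and shapes mark replicates. CA1 and CA3 markers separate the genotypes, control replicate 1 lies low for CA1 and high for dentate gyrus and thalamus, and choroid plexus markers are spread over the widest range of the lists shown.

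Markers of the choroid plexus, the secretory tissue of the ventricles beside the hippocampus, differed widely between libraries. The most abundant, Ttr, which encodes the carrier of thyroid hormone and retinol, was at 93.8, 1839 and 957 CPM in the controls. In bArKO it was at 28.6, 165 and 1521 CPM. High and low libraries occurred in both genotypes, and the sums of the 12 markers behaved alike (152, 2079 and 1096 CPM against 73.4, 228 and 1733 CPM). All 12 markers had a log2 fold change below 0 with a median of -0.70. That median was -1.16 without control replicate 1 and -0.03 without control replicate 2, and it was -0.08, -0.25 and -2.26 without bArKO replicates 1, 2 and 3 in turn. Over the other groups of the series the sum reached 7622 CPM, in a 6-month male control. The habenula, which lies near the hippocampus, had its highest marker sum in bArKO replicate 3, at 23.2 CPM against 3.00 to 9.76 CPM, with Tac2 the most abundant.

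Across the transcriptome the genotypes were close. In a fit of the 12 libraries of 6-month mice, edgeR's quasi-likelihood test gave 0 differentially expressed genes (DEGs; absolute log2 fold change above 0.5 and Benjamini-Hochberg adjusted p under 0.05) among 15094 genes tested, or 0%. DESeq2 also gave 0 DEGs, on the same 12 libraries and on the 6 libraries alone. The smallest adjusted p in this edgeR quasi-likelihood fit was 1, and in this fit that holds for every gene described below. At an unadjusted p under 0.05 edgeR called 295 genes, and DESeq2 called 179 on the 12 libraries and 192 on the 6. Of the 295, 159 were lower in bArKO (1.05% of the genes tested) and 136 were higher (0.901%). Without control replicates 1, 2 and 3 in turn, 158 of 15328, 180 of 15369 and 161 of 15321 were lower, and 135, 136 and 161 higher. Without bArKO replicates 1, 2 and 3 in turn, 201 of 15317, 133 of 15400 and 152 of 15376 were lower, and 156, 107 and 137 higher. Every bArKO library lay below every control library for 662 genes (4.39%) and above for 583 genes (3.86%). The median log2 fold change was 0.0025 and the median standard error 0.124, so the genes below are described by their values, and none passed the adjusted threshold. An exact permutation test of 3 against 3 libraries cannot give a p below 0.1.

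The receptors for estrogen were expressed at a low level in both genotypes. Esr1 was at 1.61, 2.63 and 1.56 CPM in the controls and at 1.72, 1.41 and 2.69 CPM in bArKO. Gper1 was at 2.77, 2.84 and 2.31 CPM and at 1.95, 2.61 and 2.93 CPM. The groups overlapped for both, and their log2 fold changes of 0.01 (SE 0.35) and -0.09 (SE 0.23) were smaller than their errors. Esr2 had a count above 0 in 2 of the 6 libraries and stayed at most at 0.149 CPM. Per kilobase of exon, the mean level was 0.139 CPM for Esr1, 0.0128 CPM for Esr2 and 0.746 CPM for Gper1.

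Esrra, an orphan receptor related to the estrogen receptors that controls mitochondrial genes, was at 39.4, 36.0 and 39.1 CPM in the controls and at 42.6, 44.0 and 43.9 CPM in bArKO. The 3 bArKO values were all higher than the 3 control values, with a log2 fold change of 0.19 (SE 0.08) and an unadjusted p of 0.030 in the edgeR test. It was the 1 member of 18 tested in the list of steroid receptors and coregulators with an unadjusted p under 0.05 (0.901% of all genes were called higher), where the median log2 fold change was 0.03 (0.02 to 0.08). Here and below, brackets after a list median give its range with each of the 6 libraries left out in turn. Esrra fell short of that threshold, leaving 0 called, without control replicate 2, bArKO replicate 2 or bArKO replicate 3. Of 18 enzymes of estrogen synthesis and metabolism tested (30 listed, 4 of them at 0 counts in all 6 libraries), 0 reached that threshold and the median was -0.06 (-0.10 to -0.02). Called lower was 1 enzyme without control replicate 2, control replicate 3 or bArKO replicate 1, and 1 was called higher without control replicate 3. The most abundant of these, Sult4a1, a brain sulfotransferase, was at 349 to 384 CPM over the 6 libraries. Hsd17b12, which belongs to the family that interconverts weak and strong steroids and also elongates fatty acids, was at 83.9, 82.4 and 78.0 CPM in the controls and at 77.2, 71.5 and 74.9 CPM in bArKO.

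Among genes that estrogen is known to induce, 16 of 18 were tested and 0 reached an unadjusted p under 0.05 in either direction, while 1 was called higher without control replicate 3. Their median log2 fold change was 0.03 (0.01 to 0.07), with 7 members below 0 and 9 above. Ctsd, a lysosomal protease and a classical estrogen target, was the most abundant, at 200, 196 and 199 CPM in the controls and at 179, 187 and 207 CPM in bArKO. Rara, the retinoic acid receptor alpha, had the smallest unadjusted p of the list and was at 12.7, 10.3 and 16.2 CPM against 18.1, 15.98 and 17.5 CPM. The genotypes overlapped for Ctsd and for Rara. The estrogen response element (GGTCANNNTGACC, both strands) occurred in the 300-base RefSeq promoter windows of 0 of 14 matched members and of 20 of all 27025 genes with a window (0.074%). At so low a share, 0 of 14 cannot tell the list apart from all genes.

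Of the genes whose genotypes did not overlap and whose mean was at least 1 CPM, those with the smallest unadjusted p were taken, 12 in each direction. The chemokine gene Cxcl16, whose membrane-bound product attracts Cxcr6-positive T cells and scavenges oxidised lipids, was at 2.06, 2.42 and 2.09 CPM in the controls and at 1.12, 0.652 and 0.732 CPM in bArKO. All 3 bArKO values lay below the lowest control, and in counts the values were 23, 23 and 28 against 15, 6 and 6. Its log2 fold change was -1.32 (SE 0.37), with an unadjusted p of 0.0029 in edgeR, and it was -1.36 without control replicate 1. Zfp974, a zinc finger gene, was at 10.02, 11.2 and 10.8 CPM in the controls and at 6.97, 6.30 and 8.91 CPM in bArKO (log2 fold change -0.53, SE 0.14). Zfp109, another zinc finger gene, was at 8.14, 7.89 and 7.82 CPM and at 4.72, 5.65 and 5.86 CPM (-0.56, SE 0.15). Aspn, which encodes the matrix proteoglycan asporin, was at 2.42, 1.68 and 2.46 CPM and at 1.05, 0.978 and 0.854 CPM (-1.17, SE 0.39). In counts, Aspn was at 27, 16 and 33 against 14, 9 and 7.

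The remaining lower genes spanned a range of functions. Map3k14, which encodes the kinase NIK of the non-canonical NF-kB pathway, was at 5.90, 7.57 and 7.90 CPM in the controls and at 4.42, 5.22 and 5.49 CPM in bArKO. Dclre1b, a nuclease gene needed for telomere ends, was at 8.23, 7.05 and 8.27 CPM and at 5.77, 5.43 and 5.49 CPM. The genotypes were separated by more than their spread for Dclre1b and by a smaller gap for Map3k14. Btbd7 and the zinc finger gene Zfp267 had higher levels and log2 fold changes of -0.25 (SE 0.07) and -0.27 (SE 0.08). The other lower genes were Gm7964, R3hcc1l, Clcn1 and Gm37056.

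Log2 fold changes of the 12 higher genes lay between 0.20 and 0.66, beside -1.32 to -0.25 for the lower ones. Tmem158, a membrane protein gene induced by Ras signalling, was at 19.7, 20.1 and 19.6 CPM in the controls and at 23.9, 27.8 and 24.5 CPM in bArKO. The controls lay close together and every bArKO value lay clearly above them, with a log2 fold change of 0.37 (SE 0.10) and an unadjusted p of 0.0023 in edgeR. Etv5, a transcription factor gene downstream of receptor tyrosine kinases, was at 36.1, 36.0 and 38.4 CPM and at 46.2, 42.5 and 43.9 CPM (log2 fold change 0.27, SE 0.09). Pde4a, a phosphodiesterase gene that limits cyclic AMP, was at 82.0, 86.4 and 85.6 CPM and at 92.0, 96.8 and 102 CPM (0.20, SE 0.07). Pard6a, a cell polarity gene, was at 13.8, 13.9 and 16.6 CPM and at 18.2, 20 and 17.1 CPM (0.32, SE 0.11). The others were Letm2, Dnlz, Tesk1, Nup35, Zfp697, Gskip, Aida and Ppia, and reads of Ppia are shared with near-identical copies elsewhere in the genome.

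**Figure D2:**
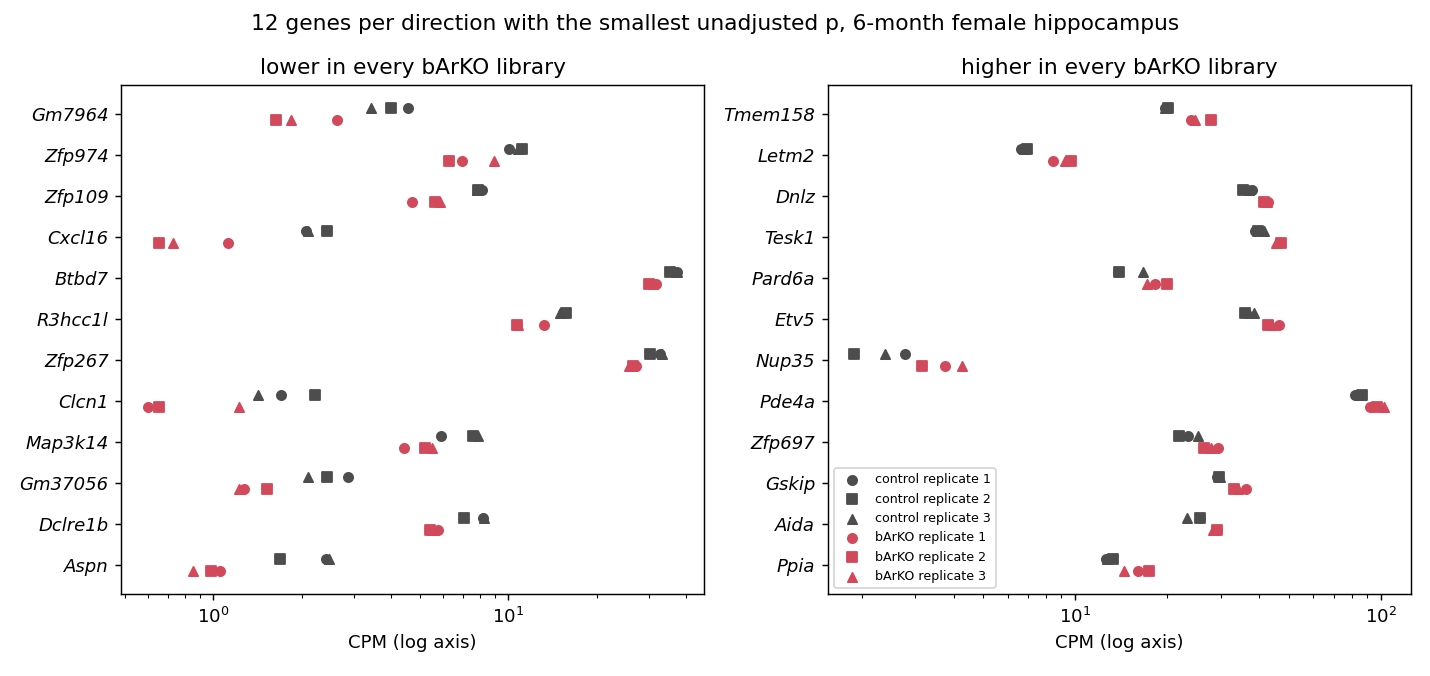
CPM per library (log axis) of the 12 genes per direction with the smallest unadjusted p among those whose genotypes do not overlap; grey marks are controls, red marks bArKO, and shapes mark replicates. The separation shown was a condition of the choice, and Cxcl16 and Aspn have the widest gaps of the genes shown.

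By position, chromosome 7 held the most lower genes, 20 of its 1146 tested (1.75%), and 7 higher (0.611%). As a share, the lower genes were about as many on chromosome 13, at 1.795%, and on chromosome 3, at 1.72%. Gm7964 and Il16, the latter encoding a cytokine that signals through CD4, lie next to each other on chromosome 7 with 9741 bases between them. Gm7964 was at 4.56, 4.00 and 3.43 CPM in the controls and at 2.62, 1.63 and 1.83 CPM in bArKO. Il16 was at 37.9, 33.3 and 36.4 CPM and at 31.0, 28.8 and 29.7 CPM, with a log2 fold change of -0.26 (SE 0.09). Both neighbours were thus lower in every bArKO library than in every control. Chromosome 9, which carries Cyp19a1, held 5 lower and 7 higher genes of 870 tested.

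Interferon genes were examined from ligand to target. All 18 interferon genes listed, among them Ifnb1 and Ifng, had 0 counts in all 6 libraries. The receptor genes Ifnar1 and Ifngr1 were expressed in both genotypes. Ifnar1 was at 40.3, 39.3 and 42.0 CPM in the controls and at 42.0, 40.7 and 45.5 CPM in bArKO. Ifngr1 was at 15.4, 15.04 and 16.6 CPM and at 15.7, 15.5 and 20.02 CPM, and the genotypes overlapped for both receptors. Of 34 receptors and signalling members tested, 0 reached an unadjusted p under 0.05, and their median log2 fold change was -0.03 (-0.07 to 0.02). Called lower were 3 members without control replicate 2 or bArKO replicate 3 and 2 without control replicate 3 or bArKO replicate 1. Beside these, 180 of 15369, 152 of 15376, 161 of 15321 and 201 of 15317 of all genes were called lower, in the same order.

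Of 61 type I interferon-stimulated genes tested (81 listed), 49 had a log2 fold change below 0 and the median was -0.25, against 0.0025 over all genes tested. An unadjusted p under 0.05 was reached by 2 members, Cxcl10 and Trim25, both lower in bArKO, and by 0 in the other direction, beside 1.05% lower and 0.901% higher of all genes tested. The genotypes did not overlap for 3 members, all lower in bArKO, beside 4.39% of all genes. Among 15 genes stimulated by interferon gamma, 12 lay below 0 with a median of -0.36, and Irgm2, Irgm1 and Gbp7 had an unadjusted p under 0.05, all lower (1.05% of all genes). The direction of both medians rested on control replicate 1. Without that library the medians were 0.07 and 0.01, and 0 members of either list were called lower, with 1.03% of all genes tested called lower and 0.881% called higher in that fit. Without any other library the type I median lay between -0.45 and -0.21, with 1 to 12 members called lower, and the interferon gamma median between -0.60 and -0.34, with 0 to 5. The counts were 8 and 5 without control replicate 2, 12 and 4 without control replicate 3, 1 and 0 without bArKO replicate 1, 1 and 1 without bArKO replicate 2, and 6 and 2 without bArKO replicate 3. In the same order, 180 of 15369, 161 of 15321, 201 of 15317, 133 of 15400 and 152 of 15376 of all genes were called lower. Type I members tested numbered 64, 63, 63, 64 and 64 in these fits, and interferon gamma members 15 in each.

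Cxcl10, which encodes a chemokine for T cells and is among the genes most readily induced by interferon, was at 7.96, 0.631 and 0.224 CPM in the controls and at 0.1499, 0.435 and 0.244 CPM in bArKO. In counts these were 89, 6 and 3 against 2, 4 and 2, so the level lay far from the rest in control replicate 1 alone. The log2 fold change was -3.41 (SE 1.11) with an unadjusted p of 0.0081 in edgeR, and -0.58 without that library. Ifit3, an RNA-binding antiviral effector gene, was at 26.2, 3.68 and 2.68 CPM and at 3.07, 3.59 and 6.71 CPM. Its fold change turned from -1.31 (SE 0.69) to 0.47 when control replicate 1 was left out. Ifit1, its neighbour in the same gene cluster, was at 13.3, 1.47 and 2.61 CPM and at 2.25, 2.28 and 3.66 CPM. Its fold change likewise turned from -1.11 (SE 0.65) to 0.36.

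Irf7, the transcription factor gene that amplifies the type I response, was at 11.4, 1.47 and 3.65 CPM in the controls and at 2.02, 3.70 and 3.78 CPM in bArKO. Isg15, a ubiquitin-like modifier gene, was at 5.73, 2.00 and 1.04 CPM and at 0.899, 1.41 and 2.56 CPM. Oasl2 was at 18.6, 4.31 and 3.80 CPM and at 3.75, 4.67 and 8.54 CPM. In each of these genes control replicate 1 was more than 2-fold above every other library, and bArKO replicate 3 came second. The log2 fold change of Irf7 was -0.83 (SE 0.60) and turned to 0.23 without control replicate 1. Trim25, a ubiquitin ligase gene of the RIG-I pathway, was spread more evenly, at 15.4, 12.4 and 10.4 CPM against 8.92, 9.89 and 9.76 CPM. All bArKO values of Trim25 lay below all control values, and its log2 fold change was -0.41 (SE 0.18) and -0.25 without control replicate 1.

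The immunity-related GTPases, which interferon gamma induces against intracellular pathogens, followed the same library. Irgm2 was at 14.1, 7.47 and 6.93 CPM in the controls and at 4.57, 6.74 and 6.47 CPM in bArKO (log2 fold change -0.69, SE 0.25, and -0.29 without control replicate 1). Irgm1 was at 21.8, 11.4 and 11.6 CPM and at 8.69, 9.02 and 13.2 CPM (-0.55, SE 0.24, and -0.17). Gbp7 was at 12.5, 7.36 and 8.27 CPM and at 6.29, 7.28 and 6.83 CPM (-0.46, SE 0.21, and -0.20). Irgm2 and Gbp7 were lower in every bArKO library than in every control, while Irgm1 overlapped through bArKO replicate 3. With control replicate 1 left out, the nearest control and bArKO values were 6.93 and 6.74 CPM for Irgm2 and 7.36 and 7.28 CPM for Gbp7.

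Taking both lists, 60 of 76 members tested (78.9%) were highest in control replicate 1, where 19.3% of all genes tested were highest. The median member lay 0.57 log2 units above its own mean over the 6 libraries in control replicate 1 and 0.17 units above it in bArKO replicate 3. In the other 4 libraries its deviation lay between -0.28 and -0.10. Of the 17 genes that were at least 2-fold above every other library in control replicate 1, 11 belonged to these lists (64.7%), which make up 0.493% of the 14405 genes considered. They were Cxcl10, Ifi27l2a, Ifi44, Ifit1, Ifit3, Ifit3b, Igtp, Irf7, Isg15, Oasl2 and Parp14. The remaining 6 were Adm, Cd274, Ddx60, Hcn4, Shox2 and Wnt9b, of which Cd274, encoding the immune checkpoint ligand PD-L1, and Ddx60 are also known to respond to interferon. The microglial (579 CPM), dentate gyrus, thalamic and blood sums of control replicate 1 were also the highest of the 6, and their part in the interferon result was not tested.

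**Figure D3:**
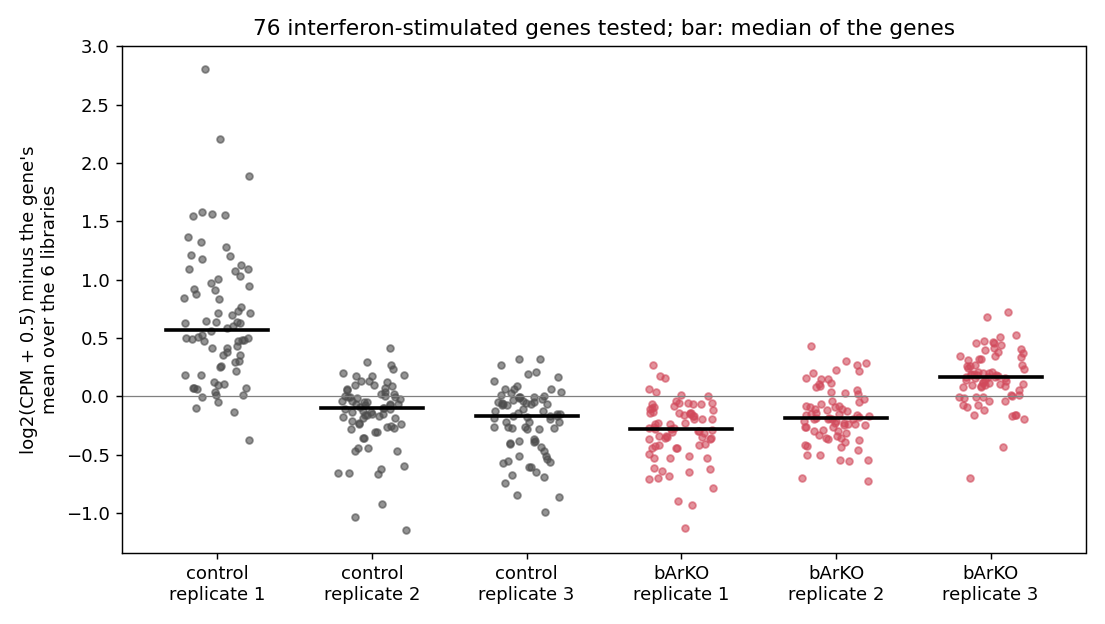
Each point is 1 of 76 interferon-stimulated genes tested, as log2(CPM + 0.5) minus the mean of that gene over the 6 libraries; bars are medians over the genes, grey for controls and red for bArKO. Control replicate 1 lies above the rest with a median of 0.57, bArKO replicate 3 follows at 0.17, and the other 4 libraries lie below 0.

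Summed over the type I list, the level was 1135, 803 and 767 CPM in the controls and 744, 776 and 910 CPM in bArKO. The interferon gamma list summed to 141, 76.0 and 77.8 CPM and to 64.7, 74.7 and 88.5 CPM. Control replicate 1 was the highest of all 24 libraries in both sums. The other 23 libraries, of both sexes, genotypes and ages, lay between 744 and 981 CPM for the type I list and between 60.6 and 108 CPM for the interferon gamma list. The second highest library was a 24-month female bArKO in both. At the other end, bArKO replicate 1 had the lowest type I sum of all 24 and ranked 21 of 24 in the interferon gamma sum, whose lowest library was a 6-month male bArKO.

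**Figure D4:**
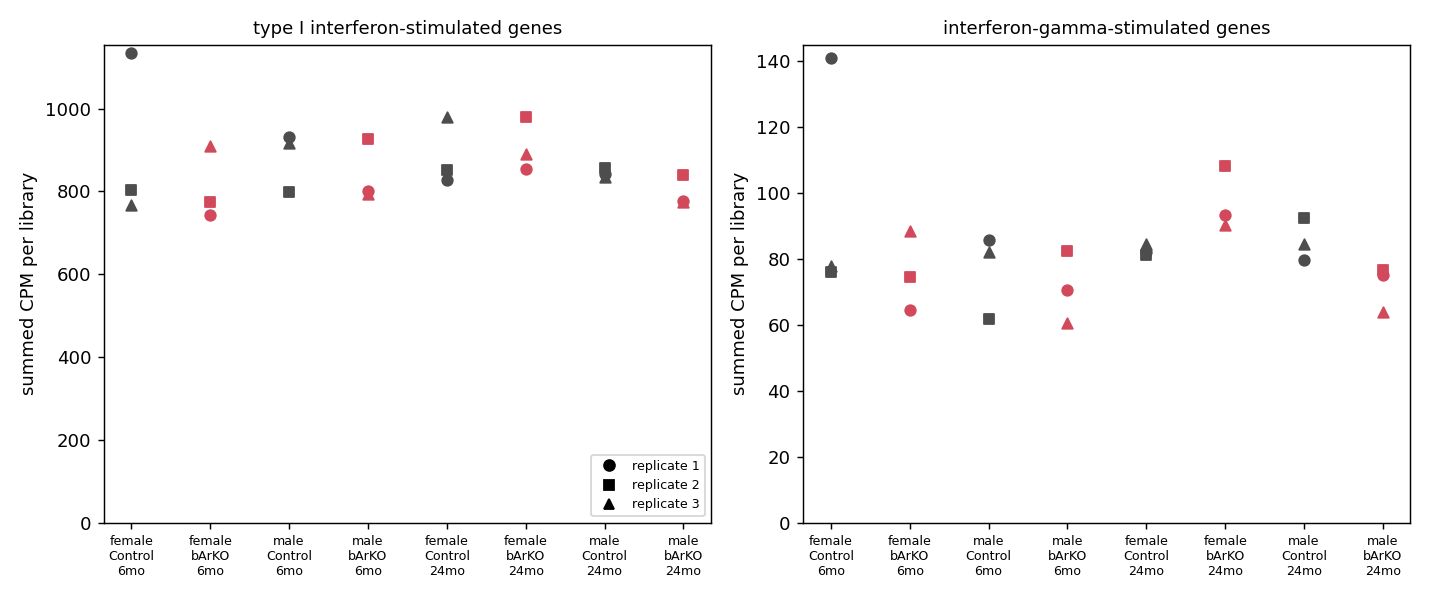
Summed CPM of the type I (left) and interferon gamma (right) lists in each of the 24 libraries, by group and replicate. Control replicate 1 of the 6-month females is at 1135 and 141 CPM, and the other 23 libraries lie at or below 981 and 108 CPM.

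Because the members that stood out moved together in 1 library, their promoters were read for the core of the interferon-stimulated response element, GAAANNGAAA on either strand. The core occurred in the windows of 30 of 61 matched type I genes (49.2%) and 10 of 14 matched interferon gamma genes (71.4%), against 1079 of 27025 genes in all (3.99%). Of the 11 list members that stood out in control replicate 1, 9 had a window and 6 of these held the core. Windows of 4 of them follow in full, 5′ to 3′ on the strand of the gene, from RefSeq on GRCm38.p6, with capitals marking the cores or their reverse complement. They are Cxcl10 (chr5:92348840-92349139, minus strand), Ifit3 (chr19:34583279-34583578, plus strand), Isg15 (chr4:156200769-156201068, minus strand) and Igtp (chr11:58199306-58199605, plus strand).
Cxcl10: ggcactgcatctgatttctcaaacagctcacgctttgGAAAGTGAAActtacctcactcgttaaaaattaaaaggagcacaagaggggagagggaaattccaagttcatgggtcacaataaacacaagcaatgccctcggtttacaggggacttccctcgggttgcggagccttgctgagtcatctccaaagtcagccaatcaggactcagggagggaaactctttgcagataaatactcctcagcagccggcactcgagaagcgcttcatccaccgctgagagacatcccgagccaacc
Ifit3: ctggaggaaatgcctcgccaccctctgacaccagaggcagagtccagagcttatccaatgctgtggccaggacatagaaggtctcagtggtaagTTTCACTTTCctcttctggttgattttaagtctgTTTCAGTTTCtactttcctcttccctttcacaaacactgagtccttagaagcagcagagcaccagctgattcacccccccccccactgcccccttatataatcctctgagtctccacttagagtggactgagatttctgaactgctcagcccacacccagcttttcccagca
Isg15: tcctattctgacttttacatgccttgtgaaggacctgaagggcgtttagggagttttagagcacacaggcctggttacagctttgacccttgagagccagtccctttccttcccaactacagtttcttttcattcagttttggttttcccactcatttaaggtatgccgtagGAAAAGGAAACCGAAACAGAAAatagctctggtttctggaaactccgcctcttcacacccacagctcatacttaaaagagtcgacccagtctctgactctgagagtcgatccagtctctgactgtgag
Igtp: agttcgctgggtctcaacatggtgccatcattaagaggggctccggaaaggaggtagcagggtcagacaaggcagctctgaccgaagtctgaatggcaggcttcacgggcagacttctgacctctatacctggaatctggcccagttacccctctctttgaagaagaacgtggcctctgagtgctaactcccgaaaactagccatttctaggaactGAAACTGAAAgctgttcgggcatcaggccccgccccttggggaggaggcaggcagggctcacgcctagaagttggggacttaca
Cxcl10 and Igtp held 1 core each, Ifit3 held 2 and Isg15 held 3 overlapping ones. A match describes letters in the window and shows no binding.

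Antigen presentation and complement were described next. The class I gene H2-D1 was at 64.1, 34.8 and 35.2 CPM in the controls and at 30.3, 33.7 and 53.5 CPM in bArKO. B2m, the light chain of class I molecules, was at 136, 85.1 and 88.5 CPM and at 84.1, 87.2 and 112 CPM. For both, control replicate 1 was highest and bArKO replicate 3 second. Of 21 MHC class I members tested, 11 were highest in control replicate 1. The class I list summed to 1233, 1188 and 1097 CPM in the controls and to 1035, 1134 and 1255 CPM in bArKO, highest in bArKO replicate 3. None of the 21 reached an unadjusted p under 0.05, and 11 lay below and 10 above a log2 fold change of 0, with a median of -0.02 (-0.09 to 0.08), highest without control replicate 1.

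MHC class II genes, which mark border macrophages and dendritic cells in the brain, differed in level. H2-DMa was at 10.4 to 15.04 CPM over the 6 libraries, and Ctss, a protease gene of the list, at 93.5 to 112 CPM. H2-Eb1 was at 2.06, 3.37 and 2.09 CPM in the controls and at 1.27, 0.870 and 1.46 CPM in bArKO, with no overlap (log2 fold change -1.03, SE 0.44, unadjusted p 0.035 in edgeR). H2-Aa was highest in control replicate 2, at 5.05 CPM, against 0.974 to 2.24 CPM in the others, and Cd74 ranged from 1.85 to 6.00 CPM with overlap. Of 8 members tested 1, H2-Eb1, was called lower (1.05% of all genes), and the median was -0.40. That median was -0.07 without control replicate 2, -0.16 without control replicate 3, -0.12 without bArKO replicate 2 and -0.33 to -0.31 without any of the others, with 9 members tested in each, and -0.08 over the members with at least 10 counts in every library. H2-Eb1 had the 1 call in the list with all 6 libraries, and the count was 0 without control replicate 2, bArKO replicate 1 or bArKO replicate 2. Border macrophage markers, whose most abundant member Mrc1 had a mean of 4.01 CPM, summed to 11.5, 11.7 and 8.12 CPM in the controls and to 8.84, 10.9 and 12.7 CPM in bArKO, with overlap.

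In the complement list, 2 of 17 members tested were called lower at an unadjusted p under 0.05 and 0 higher, beside 1.05% lower and 0.901% higher of all genes tested. Without overlap 6 were lower, beside 4.39% of all genes. C3, the component on which the cascades converge, was at 5.01, 5.26 and 3.06 CPM in the controls and at 2.85, 1.96 and 3.17 CPM in bArKO (log2 fold change -0.72, SE 0.29). Cd46, a complement regulator gene, was at 2.42, 2.74 and 3.35 CPM and at 1.35, 2.07 and 1.71 CPM (-0.75, SE 0.34). C4b, a component of the classical pathway, was at 56.0, 45.1 and 46.5 CPM and at 40.2, 42.7 and 40.8 CPM (-0.25, SE 0.15, and -0.15 without control replicate 1). Cd46 and C4b did not overlap and C3 did. The count of called members was 1 without any of 5 libraries and 0 without control replicate 2. C1qa, made by microglia, overlapped between the genotypes at means of 63.5 and 64.5 CPM, and the list median was -0.09 (-0.09 to -0.00017), nearest 0 without control replicate 2.

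Cytokines and chemokines gave 3 called members of 20 tested, all lower, namely Cxcl16, Cxcl10 and Il16, beside 1.05% of all genes called lower. Without control replicate 1 there was 1, and without any of the others 3. The most abundant, Cx3cl1, the neuronal ligand that restrains microglia, was at 490 to 562 CPM in the controls and 484 to 586 CPM in bArKO. Of 23 cytokine and chemokine receptors 0 were called, and the median was 0.0015 (-0.05 to 0.03). The list of Toll-like receptors, NF-kB and inflammasome genes also had 0 called of 35, with a median of 0.01 (-0.0019 to 0.04). Called higher were 2 members without bArKO replicate 2 and 1 without bArKO replicate 3. Over all genes, 107 of 15400 and 137 of 15376 were called higher in those fits. Casp8, the initiator caspase gene of that list with the smallest unadjusted p, was at 1.88, 2.52 and 2.76 CPM in the controls and at 3.90, 2.07 and 5.25 CPM in bArKO, with overlap.

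Glial states gave few calls. Disease-associated microglia genes had 0 called of 23 and a median of -0.05 (-0.06 to -0.02). Fth1, the ferritin gene that led the list, was at 2235 to 2806 CPM in the controls and 2360 to 2801 CPM in bArKO. Apoe, the lipid carrier gene, was at 1697 to 2001 CPM and at 1816 to 2024 CPM, and the genotypes overlapped for both. Among 21 genes of reactive astrocytes, Cxcl10 and Amigo2 were called lower (1.05% of all genes) and the median was -0.10 (-0.16 to -0.05). Amigo2, an adhesion gene that also marks CA2 neurons, was at 21.02, 22.2 and 22.5 CPM in the controls and at 18.6, 19.3 and 18.7 CPM in bArKO, without overlap (log2 fold change -0.21, SE 0.09). The astrocyte count was 1 without control replicate 1, 2 or 3 or bArKO replicate 3. Amigo2 was also the 1 member called among 168 marker genes tested in 25 marker lists, beside 1.05% of all genes called lower. With a library left out the calls over the marker lists numbered 2, 2 and 0 without control replicates 1, 2 and 3 and 1, 0 and 4 without bArKO replicates 1, 2 and 3. They fell in the CA2, CA3, interneuron, thalamus, habenula and blood lists. The call without bArKO replicate 1 was higher, beside 156 of 15317 of all genes. The others were lower, beside 158 of 15328, 180 of 15369 and 152 of 15376 without control replicate 1, control replicate 2 and bArKO replicate 3. Gfap, the intermediate filament gene of astrocytes, was at 753, 772 and 762 CPM and at 805, 687 and 630 CPM, with overlap.

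Immediate early genes, which neurons switch on within minutes of activity, leaned the other way. All 33 listed were tested, 30 had a log2 fold change above 0, and the median was 0.22 against 0.0025 over all genes tested. At an unadjusted p under 0.05, 4 were higher in bArKO and 0 lower, and 7 were higher without overlap. Of all genes tested, 0.901% were called higher and 3.86% were higher without overlap. Unlike the interferon medians, this median did not rest on 1 library and lay between 0.20 and 0.28 with each of the 6 left out in turn. Leaving out 1 library at a time cannot show a lean that rests on 2. The median member deviated from its own mean over the 6 libraries by -0.20, -0.16 and -0.03 log2 units in the controls. In bArKO replicates 1 to 3 the deviation was -0.07, 0.14 and 0.19. The count of 4 did vary, to 1 without control replicate 1, bArKO replicate 2 or bArKO replicate 3, 0 without control replicate 2, and 6 without control replicate 3 or bArKO replicate 1. Over all genes, 161 of 15321 and 156 of 15317 were called higher without control replicate 3 and without bArKO replicate 1.

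Egr1, a transcription factor gene of the plasticity response, was at 140, 126 and 158 CPM in the controls and at 149, 219 and 231 CPM in bArKO. Replicates 2 and 3 of bArKO lay above all controls and replicate 1 among them (log2 fold change 0.50, SE 0.23, unadjusted p 0.0497 in edgeR). Fosl2, an AP-1 subunit gene, was at 46.6, 48.8 and 51.3 CPM and at 59.5, 55.3 and 57.0 CPM (0.23, SE 0.11). Dusp5, a phosphatase gene that restrains ERK in the nucleus, was at 17.4, 16.1 and 19.8 CPM and at 24.1, 21.1 and 29.3 CPM (0.47, SE 0.22). Fosl2 and Dusp5 did not overlap between the genotypes. Ccn1, a secreted matrix protein gene induced as an immediate early gene, was at 6.26, 7.26 and 7.97 CPM and at 7.87, 14.1 and 15.9 CPM (0.79, SE 0.36). Arc and Fos, 2 widely used reporters of activity, overlapped. Arc was at 226, 286 and 363 CPM and at 305, 407 and 373 CPM, and Fos at 19.0, 22.5 and 25.2 CPM and at 20.98, 37.5 and 34.2 CPM.

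Summed over the list, immediate early genes were at 1511, 1523 and 1718 CPM in the controls and at 1611, 1982 and 2034 CPM in bArKO. The sums overlapped through bArKO replicate 1 and control replicate 3. Among all 24 libraries, bArKO replicates 3 and 2 ranked 1 and 2, and bArKO replicate 1 ranked 13. Sums also spread within other groups, from 1533 to 1934 CPM in 6-month male controls and 1434 to 1930 CPM in 6-month male bArKO. In 24-month female bArKO they spread from 1348 to 1845 CPM. The median log2 fold change of the list was -0.02 in 6-month males and -0.01 in 24-month females. All 5 CA1 markers, led by Mpped1 and with none at 0, also had a log2 fold change above 0, and their sums of 444, 613 and 641 CPM against 655, 698 and 723 CPM did not overlap. The CA1 median was 0.31 (0.15 to 0.40), lowest without control replicate 1; the part of these markers in the immediate early result was not tested.

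Stress and timing genes had 0 called with all 6 libraries. Glucocorticoid-responsive genes had 0 called of 17 and a median of 0.05 (-0.14 to 0.16), which was -0.14, 0.13 and 0.16 without bArKO replicates 1, 2 and 3. In bArKO replicate 1, Sgk1, a kinase gene induced by glucocorticoids, was at 151 CPM, beside 136 CPM in control replicate 1 and 85.9 to 95.1 CPM in the other 4. Heat shock and cold shock genes had 0 called of 20 with a median of -0.01 (-0.04 to 0.02), and 1 higher without bArKO replicate 3. Clock genes had 0 of 19 with a median of 0.03 (-0.01 to 0.08), below 0 without control replicate 2 or 3 and highest without control replicate 1 or bArKO replicate 2. Among the clock genes, Per1, which also responds to activity and stress, was at 87.1, 64.1 and 73.8 CPM in the controls and at 87.4, 81.6 and 81.0 CPM in bArKO, with overlap. Its log2 fold change was 0.16 (unadjusted p 0.13), and 0.28 (0.012) without control replicate 1 and 0.06 without control replicate 2. In the fit without control replicate 1, Per1 was the 1 member called in both the clock and the glucocorticoid list. Nr1d1 was at 67.2 and 72.2 CPM on average and did not overlap.

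Genes of the synapse differed little. Glutamate receptor genes had 0 called of 24 and a median of -0.01 (-0.02 to 0.02), GABA receptor genes 0 of 14 and -0.01 (-0.06 to 0.03). Without control replicate 2, 1 glutamate receptor gene was called lower. Gria1, the most abundant glutamate receptor gene, had means of 1133 CPM (SD 10.1) in controls and 1149 CPM (SD 63.6) in bArKO over 3 libraries each. Scaffolds and vesicle proteins had 1 called of 38, higher (0.901% of all genes), and a median of 0.03 (0.01 to 0.05). That member, Dlgap4, a scaffold gene of the postsynaptic density, was at 258, 265 and 251 CPM in the controls and at 281, 289 and 279 CPM in bArKO (log2 fold change 0.14, SE 0.06). It did not overlap, and the count was 0 without control replicate 1, control replicate 3 or bArKO replicate 2. The related scaffold gene Dlgap1 was at 741, 734 and 762 CPM and at 789, 787 and 789 CPM, also without overlap.

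Neuropeptides had 0 called of 16 and a median of 0.12 (0.07 to 0.24), highest without bArKO replicate 1, and 1 was called higher without control replicate 2 or control replicate 3. Nmb, which encodes neuromedin B, had the smallest unadjusted p and was at 1.16, 2.31 and 1.86 CPM in the controls and at 2.40, 2.50 and 3.05 CPM in bArKO, without overlap. Sst, the somatostatin gene of a major class of interneurons, was at 110, 147 and 163 CPM and at 144, 187 and 149 CPM, with overlap. Neurotrophins and their receptors had 0 called of 14 and a median of -0.01 (-0.06 to 0.04), and 1 called higher without bArKO replicate 1. The ligand gene Ntf3 was at 10.6, 8.31 and 7.601 CPM and at 6.14, 7.83 and 5.98 CPM. It overlapped only through bArKO replicate 2 and control replicate 3.

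The extracellular matrix list was the largest, with 91 of 94 members tested. At an unadjusted p under 0.05, 1 was lower (Aspn; 1.05% of all genes) and 2 were higher (Ccn1 and Bcan; 0.901%), and the median was -0.02 (-0.06 to 0.05), above 0 without control replicate 2 or bArKO replicate 1. Bcan, the gene of brevican, a proteoglycan of perineuronal nets, was at 256, 269 and 255 CPM in the controls and at 276, 293 and 280 CPM in bArKO (log2 fold change 0.13, SE 0.06). With a library left out, 0 to 4 members were called higher and 1 to 3 lower. Higher calls numbered 0 without control replicate 1, control replicate 3 or bArKO replicate 2, 3 without control replicate 2, 4 without bArKO replicate 1 and 1 without bArKO replicate 3, and lower calls 2 without control replicate 3 or bArKO replicate 1 and 3 without bArKO replicate 3. TGF-beta and Wnt ligands and receptors had 0 called of 25 and a median of -0.03 (-0.05 to 0.04).

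The study named several genes from its sequencing or qPCR, but not for young mice, in which it reported no DEGs in either sex. It named Ccn2, Col1a1, Dcn, Ogn and Slc17a6 from sequencing, and Col1a2 and Vim from qPCR, for old bArKO females. Rreb1 and Irx2 were named for old bArKO males, and C4b and Ighm for ageing. In the 6-month females most of these genes overlapped between the genotypes. Col1a1, a fibrillar collagen gene, was at 9.57, 10.2 and 6.78 CPM in the controls and at 5.47, 9.46 and 11.4 CPM in bArKO (log2 fold change -0.03, SE 0.31). Dcn, the gene of decorin, was at 15.1, 16.5 and 14.2 CPM and at 12.7, 15.98 and 17.9 CPM (0.02, SE 0.23). The collagen and decorin values showed no separation of the genotypes, nor did those of Col1a2, Ogn, Vim, Rreb1, Irx2 and Ighm. Ccn2, a matricellular gene induced by TGF-beta and YAP, was at 4.29, 2.95 and 4.69 CPM and at 5.69, 5.11 and 7.69 CPM, without overlap (0.61, SE 0.31). Slc17a6, the vesicular glutamate transporter gene typical of thalamus, was at 21.7, 8.63 and 14.8 CPM and at 12.7, 11.7 and 14.4 CPM (-0.23, SE 0.52, and 0.12 without control replicate 1). It was highest in the control library with the highest sum of thalamic markers, a sum that includes Slc17a6.

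Genes of cholesterol synthesis and transport had 0 called of 25 and a median of 0.03 (-0.01 to 0.05), and Alzheimer risk and amyloid genes 0 of 22 and 0.01 (-0.01 to 0.02). Without control replicate 2, 1 gene of the sterol list was called lower. Lrp1, a receptor gene for lipoproteins, had the smallest unadjusted p of the sterol list and was at 482, 471 and 486 CPM in the controls and at 503, 531 and 516 CPM in bArKO, without overlap. App, the amyloid precursor gene, was at 1257 to 1331 CPM and at 1162 to 1331 CPM, with overlap. Of 13 mitochondrially encoded genes 7 were tested, with 0 called and a median of 0.03 (-0.04 to 0.11), below 0 without control replicate 1 or bArKO replicate 1. The other 6, among them mt-Co2 and mt-Atp6, had 0 counts in all 6 libraries, while mt-Co1 was at a mean of 18169 CPM.

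**Figure D5:**
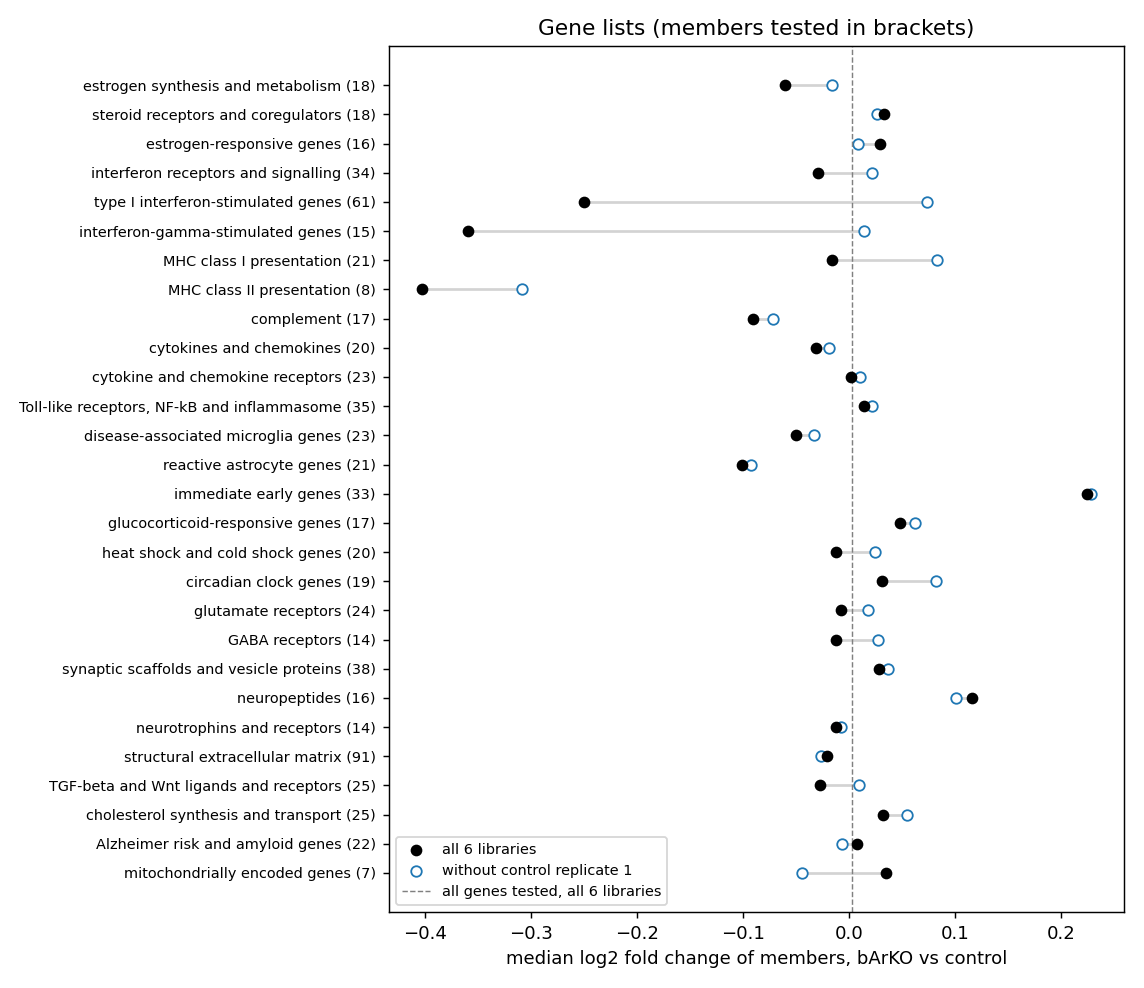
Median log2 fold change (bArKO against control) of 28 gene lists with all 6 libraries (black) and without control replicate 1 (open blue); the dashed line is the median of all genes tested. The medians of the interferon lists, -0.25 and -0.36, lie at 0.07 and 0.01 without that library, while those of the immediate early genes, 0.22, and of MHC class II, -0.40, keep their side of 0.

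Testing every gene with at least 1 count, with no filter on low counts, gave 16 DEGs in edgeR's quasi-likelihood test, 13 lower and 3 higher in bArKO. All 16 were also in the filtered fit, where none passed. They included the choroid plexus genes Ttr, Enpp2, Clic6 and Ecrg4 and the interferon-stimulated genes Cxcl10, Ifit3 and Ifit1. Also among them were Prkcd and Ramp3 of the thalamus list, Shox2, a gene with a high level in thalamus or habenula, and Calb2 of the interneuron list. Prkcd was at 75.1, 29.2 and 43.3 CPM in the controls and at 28.0, 34.9 and 27.2 CPM in bArKO, and Shox2 at 5.64, 0.316 and 2.09 CPM and at 0.974, 0.217 and 0.976 CPM. Both were highest in control replicate 1, which also had the highest thalamic sum. Prkcd is itself a member of that list, so the 2 statements are not independent for it. Synpo2 and Tns4 completed the lower genes. The 3 higher ones were Ccn1, Nxph3 and Capn11, and Nxph3, encoding a secreted ligand of neurexins, was at 3.22, 4.52 and 6.33 CPM and at 9.29, 11.5 and 5.37 CPM. Tns4 did not overlap between the genotypes, while the other 15 did. Without control replicates 1, 2 and 3 in turn this count was 28, 15 and 37, and without bArKO replicates 1, 2 and 3 it was 16, 5 and 56.

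The genotype difference in 6-month females was set beside that in 6-month males with the interaction term of the same fit. It gave 0 DEGs by edgeR's quasi-likelihood test and by DESeq2, and 432 genes (2.86%) had an unadjusted p under 0.05 in edgeR and 316 in DESeq2. With no filter on low counts it gave 81 DEGs. Il16 had the smallest unadjusted interaction p in edgeR, 0.00014, with log2 fold changes of -0.26 in females and 0.39 in males and an adjusted p of 1.00 in edgeR. Esrra was at 0.19 in females and -0.17 in males. Cxcl16, Zfp109 and Tmem158, chosen for their difference in females, had log2 fold changes in males of 0.06, 0.15 and -0.14. Of the list medians in males, type I interferon-stimulated genes were at -0.12 and interferon gamma genes at -0.09.

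The difference was also set beside that in females labelled 24 months, in a fit of all 24 libraries. The interaction gave 0 DEGs in edgeR's quasi-likelihood test among 15693 genes, with 611 genes (3.89%) at an unadjusted p under 0.05. DESeq2 gave 1 DEG and 614 genes at that threshold, and edgeR with no filter on low counts gave 49 DEGs. The 1 gene was Gh, the growth hormone gene, with 4.08 CPM in 1 of the 24-month bArKO libraries and at most 0.0895 CPM in the other 11 female libraries. Gm7964 had the smallest unadjusted interaction p in edgeR, 0.00011, with log2 fold changes of -0.93 at 6 months and 0.67 at 24 months. Cxcl16 was at -1.32 and 0.42, Dcn at 0.02 and 1.25, and Col1a1 at -0.03 and 1.11. The median of the interferon gamma list was -0.36 at 6 months and 0.26 at 24 months, and that of the type I list -0.25 and 0.16. Without control replicate 1 the 6-month medians were 0.01 and 0.07. The smallest adjusted p of the age interaction was 0.60475 in edgeR's filtered quasi-likelihood fit.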

How the data were processed

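The authors trimmed reads with Trim Galore 0.6.10, aligned them to GRCm39 with STAR 2.7.9a and counted them per gene with HTSeq 2.0.2; the deposited values are these raw counts, for 57186 genes in 24 libraries. No strand option was named, default settings being used unless noted, and the annotation release was not stated. CPM were computed here as counts over the library total times its TMM factor. Symbols and coordinates came from GENCODE on GRCm39.

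Genes kept by filterByExpr went into edgeR 4.0.16 (R 4.3.3) and its quasi-likelihood test, with a coefficient for each of the 4 groups in the 12 libraries of 6-month mice and no covariate. The age interaction used all 24 libraries. DEGs were called at a Benjamini-Hochberg adjusted p under 0.05 together with a log2 fold change beyond 0.5 in either direction. DESeq2 1.42.0 was run as an alternative. Standard errors are the log2 fold change over the square root of the quasi-likelihood F. The tests were tested on simulated data, and the outcome of that is not given here.

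The 29 gene lists and 25 marker lists were described by counts and medians, with no test of a list, and the members and lists were chosen with earlier results of these data known. Genes named were aromatase, estrogen receptors, Xist and Ddx3y, the 12 per direction described as ranked, in each list the 2 most abundant members and the 4 with the smallest p, and genes the study names. Other genes, among them Ifit1, Irf7, Isg15, Oasl2, Ifnar1, Ifngr1, Fos, Ttr, the genes called without a filter and Gh, were chosen after their values were seen. Promoter windows, 250 bases before to 50 after the start, were RefSeq's. Alternatives covered the tool, the scaling, the filter, the libraries in the fit, the replicate block and each library left out. Counts of list members, of directions and of unfiltered DEGs with a library left out, and the sums over 24 libraries, were added after seeing the data.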

Additional observations from a re-analysis of the deposited data

How the results depend on the processing

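The count of DEGs between bArKO and control in 6-month females was 0 under DESeq2 on 12 or 6 libraries, RLE size factors, a minimum of 10 counts in every library, all 24 libraries in a fit, the 12 female libraries, the 6 libraries alone, no fold change threshold and with each library left out. It was 16 with every gene of at least 1 count. The replicate block also gave 0 DEGs, with 306 genes at an unadjusted p under 0.05. Deviations of same-numbered libraries from the group means correlated at 0.083, 0.0080 and -0.048 over 15094 genes. The deposited column names of control replicate 1 and bArKO replicate 1 are adjacent numbers and lie apart from those of the other 6-month female libraries. What these numbers record was not stated, and a shared batch was not tested.

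The 295 genes at an unadjusted p under 0.05 became 179 under DESeq2 on 12 libraries, 192 under DESeq2 on 6 and 765 with every gene of at least 1 count, and lay between 240 and 357 with a library left out. The sex interaction gave 81 DEGs and the age interaction 49 with every gene of at least 1 count, and the age interaction gave 1 under DESeq2. The cause was not tested.

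With a library left out, the median of type I interferon-stimulated genes lay between -0.451 and 0.0734 and that of interferon gamma genes between -0.603 and 0.0136, the upper ends being without control replicate 1. Of 39 genes whose fold change is given, 31 kept their sign under RLE size factors, DESeq2 on 12 libraries, the replicate block and each library left out, the alternatives run for them. The other 8 turned with a library left out. The range was -1.79 to 0.472 for Ifit3, -1.54 to 0.364 for Ifit1, -1.25 to 0.230 for Irf7 and -0.486 to 0.121 for Slc17a6, with the upper end without control replicate 1 in each. Esr1 ranged from -0.256 to 0.275, Gper1 from -0.213 to 0.0741, Col1a1 from -0.252 to 0.242 and Dcn from -0.0868 to 0.153.

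With 3 libraries a side, an exact permutation test cannot give a p below 0.1. Genes under about 1 CPM rest on few counts, and aromatase and the interferon genes lay at the floor.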
